A study of Mus musculus with 22 samples.

Results

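The genes of the vascular endothelial growth factor (VEGF) family were followed in bulk RNA sequencing of mouse retina and choroid after laser-induced choroidal neovascularisation (CNV), in which a laser burn is followed by ingrowth of vessels from the choroid under the retina. The members were the 10 rows of each deposited count table whose gene name is one of the ligands Vegfa, Vegfb, Vegfc, Vegfd and Pgf or one of the receptors and co-receptors Flt1, Kdr, Flt4, Nrp1 and Nrp2, out of 54532 genes per table. In wild-type adult C57BL/6J mice, 4 libraries each came from day 3, day 7 and day 14 after the laser and from controls without CNV. A separate table held 3 libraries from Rag2-/-γc-/- mice (written Rag2 gc KO) and 3 from Rag2-/- mice (Rag2 KO), all at day 3 after the laser; both strains lack Rag2, needed for T and B cells, and the Rag2 gc KO strain also lacks the common gamma chain, needed for NK cells. There was no unlasered library in the Rag2 table. The labels do not say whether each library came from a separate animal, so p-values measure the spread between these samples, which may be technical. Control replicate 4 is titled as without CNV but carries a laser treatment tag, and it was kept as a control.

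VEGF-A is the main driver of vessel growth and leakage and acts chiefly through the receptor tyrosine kinase encoded by Kdr (VEGFR2). Flt1 encodes VEGFR1, which binds VEGF-A, VEGF-B and placental growth factor (Pgf) tightly, signals weakly and, in a soluble form, holds ligand away from VEGFR2. VEGF-C and VEGF-D are made as precursors and act through Flt4 (VEGFR3), the receptor of lymphatic endothelium, while the neuropilins Nrp1 and Nrp2 are co-receptors that also bind class 3 semaphorins. In the eye, VEGF-A comes from the pigment epithelium and from glia and neurons, and drugs that bind it are the standard treatment of neovascular macular degeneration. Counts are per gene, so the soluble and membrane forms of Flt1, or the splice forms of Vegfa, could not be told apart.

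Total counts were 15033983 to 16848254 per library in the wild-type table and 27227847 to 30315086 in the Rag2 table, and all 10 members passed the filter on low counts in both. Markers of rods (14 genes), pigment epithelium (12 genes) and endothelium (18 genes) were detected in every group. Lens genes took 3.34 to 6.39% of counts at day 3, 0.0110 to 4.61% at day 7 and 0.0903 to 14.6% at day 14, against 0.0280 to 1.60% in controls, and all 21 lens markers had positive fold changes over control at each day. Cornea and conjunctiva markers, 13 of 14 tested, took 0.499 to 3.44% at day 3, 0.573 to 2.82% at day 7 and 0.610 to 1.73% at day 14, against 0.265 to 0.828% in controls. The only marker of these lists at 0 in a whole wild-type group was Cryga, in controls. Lens and cornea scores were tried as covariates. At day 3 all 21 lens markers lay apart from controls, as did 40.3% of all tested genes. Between day 3 and controls such a fit therefore has no overlap in lens level. It takes the lens slope from differences within the groups and adjusts for both scores together, so it does not decide the day 3 values. Leaving out 3 wild-type libraries together was tried as an alternative. Of these, day 3 replicate 3 had the highest cornea and conjunctiva share, 3.44%, day 7 replicate 2 the lowest lens share, 0.0110%, and day 14 replicate 1 the highest lens share, 14.6%, and the lowest rod share, 1.47%, among the 16. In bulk tissue, fewer cells of a type and less RNA per cell cannot be told apart. In the Rag2 table, Il2rg, the common gamma chain gene, had 0 counts in each Rag2 gc KO library, against 28 to 62 in Rag2 KO libraries. Rag2 itself had at most 1 count in those 6 libraries and at most 4 in wild-type libraries, so it does not check the label.

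The promoters of Flt1 and Nrp2 are shown because these receptor genes fell together at day 7, and that of Kdr because it is the receptor whose level did not follow them. Each window runs from 250 bases before to 50 bases after the transcription start, as listed by RefSeq on GRCm38.p6 (mm10), 5′ to 3′ on the gene's own strand. A window was found for all 10 members. In the deposited coordinates (mm10) the Flt1 gene spans bases 147561604 to 147726011 and Kdr bases 75932827 to 75978458, both on the minus strand of chromosome 5. Capitals mark matches, on either strand, to GCGTG or ACGTG (the core of the hypoxia response element), TGACGTCA (the cAMP response element) or AGGAAG (an ETS core); no capitalised matches overlap. The windows lie at chr5:147725962-147726261 (minus strand) for Flt1, chr1:62703067-62703366 (plus strand) for Nrp2 and chr5:75978406-75978705 (minus strand) for Kdr.
Flt1: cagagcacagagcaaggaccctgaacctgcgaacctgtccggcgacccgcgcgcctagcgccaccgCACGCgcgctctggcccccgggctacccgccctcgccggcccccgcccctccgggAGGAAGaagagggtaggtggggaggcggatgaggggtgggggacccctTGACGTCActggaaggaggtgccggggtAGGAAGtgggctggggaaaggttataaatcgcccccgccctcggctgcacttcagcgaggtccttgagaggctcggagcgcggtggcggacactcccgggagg
Nrp2: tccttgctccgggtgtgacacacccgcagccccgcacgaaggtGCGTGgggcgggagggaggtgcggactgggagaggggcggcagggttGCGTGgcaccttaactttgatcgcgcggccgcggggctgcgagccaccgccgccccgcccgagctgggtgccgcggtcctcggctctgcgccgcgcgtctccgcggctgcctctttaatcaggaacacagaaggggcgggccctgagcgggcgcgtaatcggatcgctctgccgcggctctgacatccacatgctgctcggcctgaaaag
Kdr: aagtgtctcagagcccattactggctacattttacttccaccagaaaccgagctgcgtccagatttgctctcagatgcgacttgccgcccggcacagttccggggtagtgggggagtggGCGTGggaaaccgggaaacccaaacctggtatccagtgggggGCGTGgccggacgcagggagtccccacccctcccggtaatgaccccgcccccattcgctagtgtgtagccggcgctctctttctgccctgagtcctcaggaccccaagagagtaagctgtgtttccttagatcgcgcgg
The Flt1 window held 1 GCGTG (read on the other strand, as CACGC), 1 TGACGTCA that starts 81 bases before the transcription start, and 2 AGGAAG. Nrp2 and Kdr held 2 GCGTG each and none of the other motifs. Among 32851 promoter windows of the same length, GCGTG was in 32.4%, ACGTG in 19.6%, TGACGTCA in 1.79% and AGGAAG in 35.4%. The 5′-most Vegfa window, starting at base 46032328 of chromosome 17, held none of the 4 motifs, while a window for a start further into the gene held 1 ACGTG and 1 GCGTG. A match describes letters in the window and is not a binding site.

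Set per kilobase of gene length, Vegfa and Vegfb were the highest members in every wild-type group, followed by Kdr and then Flt1. Vegfa averaged 40.1 ± 4.90 CPM (the usual depth-scaled read count, here over TMM-scaled library totals) per kb at day 3, 35.0 ± 3.46 at day 7 and 36.0 ± 8.75 at day 14, against 48.3 ± 3.29 in controls (SD, n = 4 each). Vegfb averaged 37.3 ± 0.814 at day 3, 38.3 ± 6.42 at day 7 and 41.2 ± 7.64 at day 14, against 36.7 ± 3.72 in controls, on the same scale. The ranges of Vegfa and Vegfb overlapped at each day after the laser and did not overlap in controls, where Vegfa was higher. Kdr averaged 16.1, 13.05 and 11.7 CPM per kb at days 3, 7 and 14, against 12.6 in controls, and Flt1 averaged 4.49, 4.04 and 4.99, against 6.16 in controls. Vegfc, Vegfd, Flt4 and Nrp1 lay at or below 1.35 CPM per kb on average in every wild-type group, and in controls the ranges of neighbours among these 4 overlapped.

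**Figure D1:**
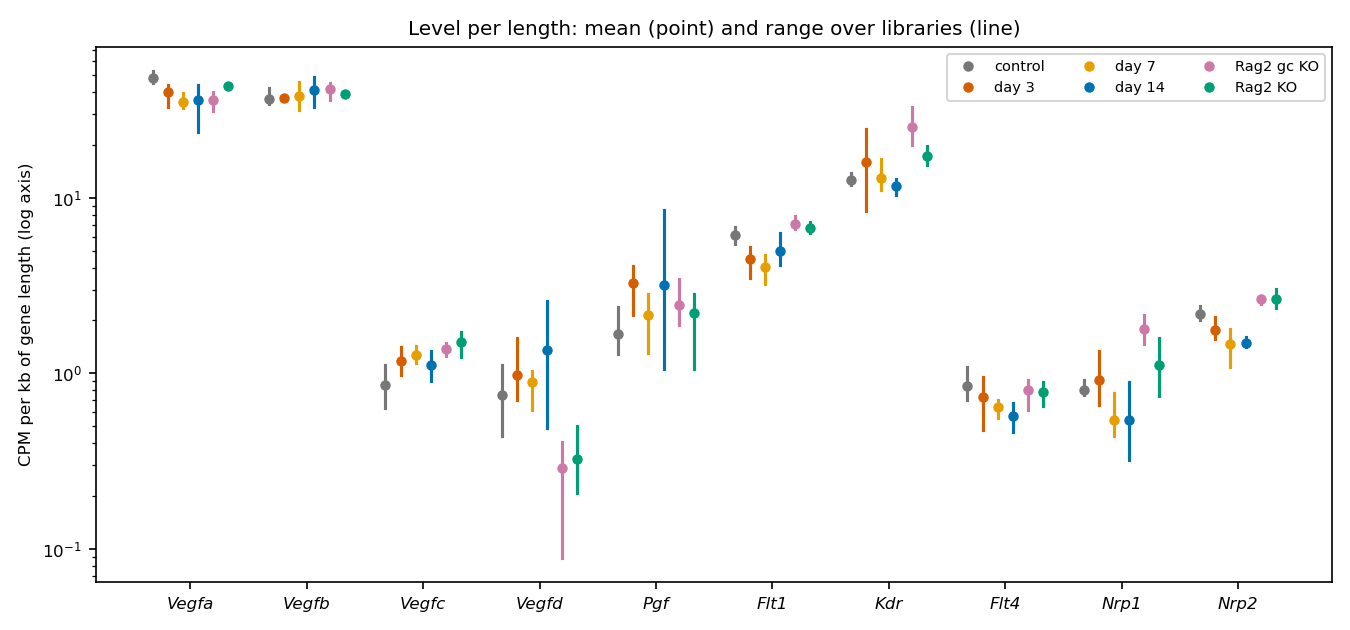
Level of each member in CPM per kilobase of gene length (log axis) by group; points are means and lines run from the lowest to the highest library (n = 4 per wild-type group, 3 per Rag2 group). In every group Vegfa and Vegfb have the highest means, then Kdr, then Flt1, with the wild-type and Rag2 tables scaled separately.

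Vegfa lay lower in all 12 libraries after the laser than in any control, by a margin that did not pass the test. At days 3, 7 and 14, 40.3%, 29.7% and 19.5% of all tested genes also did not overlap controls. The share of genes apart from controls on all 3 days was not computed. Vegfa CPM was 189, 182, 142 and 174 at day 3, then 139, 139, 171 and 151 at day 7, then 102, 174, 153 and 188 at day 14. Controls had 194, 209.7, 198 and 226 CPM. The lowest value, 102 CPM, was in day 14 replicate 1, the library with the highest lens share. The log2 fold change over control was -0.27 ± 0.16 (SE) at day 3 (edgeR adjusted p = 0.220), -0.46 ± 0.16 at day 7 (adjusted p = 0.0680) and -0.42 ± 0.16 at day 14 (adjusted p = 0.132). Adjusted for lens and cornea scores, the values were 0.088 at day 3, -0.19 at day 7 and -0.22 at day 14, and without day 14 replicate 1 the day 14 value was -0.25. At day 7 the adjusted p was 0.0363 in DESeq2, 0.0140 in a fit of day 7 and control libraries alone and 0.0141 without those 3 libraries. These settings passed 3768, 4485 and 3686 of all genes at day 7, in that order, against 1962 in the edgeR fit of all 16 libraries. As a share of the summed ligand level per kb, Vegfa made up 48.3% at day 3, 45.3% at day 7 and 43.7% at day 14, against 54.8% in controls. Vegfb, a ligand of VEGFR1 with little effect on vessel growth, held 45.1%, 49.1% and 49.5% at days 3, 7 and 14, against 41.5% in controls. Vegfb did not pass the test on any day, with log2 fold changes of 0.02, 0.06 and 0.17 and adjusted p of at least 0.443; the first 2 turned negative under some settings.

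Placental growth factor, which binds VEGFR1 and not VEGFR2, overlapped between day 3 and controls by 1 library on each side. The control library was replicate 4, at 6.95 CPM, which carries a laser treatment tag. Without it the day 3 log2 fold change was 1.20 (edgeR adjusted p = 0.196). Pgf CPM was 6.25, 9.66, 10.4 and 11.9 at day 3, then 7.97, 3.80, 4.80 and 8.23 at day 7, then 24.7, 5.80, 3.56 and 3.05 at day 14. Controls had 4.08, 3.74, 4.64 and 6.95 CPM. The groups overlapped on each day, and the day 14 mean was set by replicate 1. The log2 fold change was 0.98 ± 0.54 (SE) at day 3 (edgeR adjusted p = 0.197), 0.35 ± 0.55 at day 7 (adjusted p = 0.672) and 0.93 ± 0.55 at day 14 (adjusted p = 0.293). Without day 14 replicate 1, the day 14 value was -0.21. In a fit of day 3 and control libraries alone, the day 3 value was 0.98 with an adjusted p of 0.0143. That fit passed 7171 of all genes, against 2749 in the fit of all 16 wild-type libraries. Adjusted for lens and cornea scores, the day 3 value was -0.19 with an adjusted p of 0.901, where 492 genes passed. Day 3 and control libraries did not overlap in lens share, so that adjusted fit does not decide the day 3 value.

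The VEGFR3 ligands were counted at 16 to 86 reads per wild-type library, and neither passed the test. Vegfc CPM was 2.69, 2.96, 3.44 and 2.38 at day 3, then 2.97, 3.16, 2.78 and 3.50 at day 7, then 2.96, 2.46, 3.26 and 2.21 at day 14. Controls had 1.55, 2.23, 1.84 and 2.73 CPM. At day 7 all 4 libraries lay above the highest control, and the log2 fold change was 0.57 ± 0.21 (SE, edgeR adjusted p = 0.0887); it was 0.46 ± 0.21 at day 3 and 0.38 ± 0.22 at day 14. Vegfd ranged from 1.69 to 3.84 CPM at day 3, 1.48 to 2.47 at day 7 and 1.17 to 6.21 at day 14, against 1.05 to 2.67 in controls, with overlap on each day. Its log2 fold changes were 0.37, 0.23 and 0.84 at days 3, 7 and 14, with adjusted p of at least 0.251. The highest Vegfd value, 6.21 CPM, was again in day 14 replicate 1, and without that library the day 14 value was 0.35; without day 3 replicate 3 the day 3 value was 0.032.

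**Figure D2:**
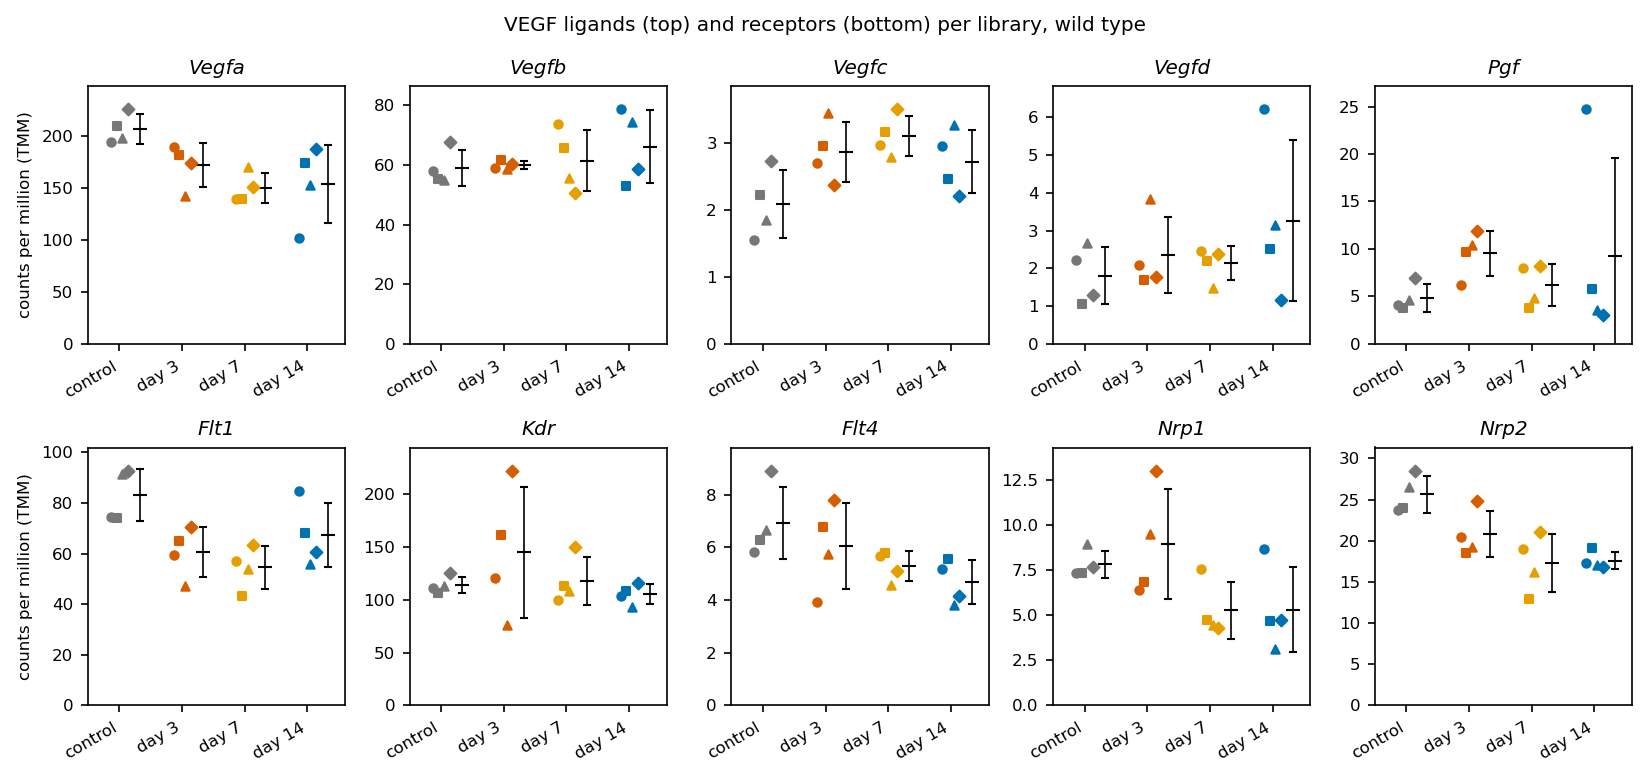
CPM (TMM-scaled) of each member in each wild-type library, ligands in the upper row and receptors in the lower; marker shapes stand for replicate numbers 1 to 4, and bars show mean ± SD (n = 4; the day 14 Pgf bar is clipped at 0). Vegfa lies below all controls on each day, Flt1 and Nrp2 at day 7, and Pgf has 1 high day 14 library at 24.7. Of all tested genes, 40.3%, 29.7% and 19.5% did not overlap controls at days 3, 7 and 14.

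Flt1 fell at day 7 and, at day 3, lay below every control without passing the test. Flt1 CPM was 59.6, 65.1, 47.2 and 70.4 at day 3, then 57.2, 43.3, 54.1 and 63.6 at day 7, then 84.6, 68.4, 55.9 and 60.7 at day 14. Controls had 74.5, 74.1, 91.4 and 92.7 CPM. All libraries of day 3 and day 7 lay below every control, while at day 14 replicate 1 reached into the control range. At day 7 Flt1 fell by 0.61 ± 0.16 on the log2 scale (SE, edgeR adjusted p = 0.0302), lower in 4 of 4 libraries. The day 3 value was -0.46 ± 0.16 (adjusted p = 0.0594) and the day 14 value -0.30 ± 0.16 (adjusted p = 0.241). The day 7 call was lost when any 1 control or any 1 of day 7 replicates 1, 2 and 3 was left out (adjusted p of 0.0506 to 0.111) and when low counts were not filtered (0.0549). Without day 7 replicate 4 the adjusted p was 0.0218. Adjusted for lens and cornea scores, the day 7 value was -0.56 (adjusted p = 0.0275), and without those 3 libraries it was -0.49 (adjusted p = 0.0113).

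Nrp2, the co-receptor of VEGFR3 and of several class 3 semaphorins, also fell at day 7. Nrp2 CPM was 20.5, 18.5, 19.3 and 24.9 at day 3, then 19.04, 12.9, 16.2 and 21.1 at day 7, then 17.3, 19.2, 17.1 and 16.8 at day 14. Controls had 23.7, 24.0, 26.5 and 28.5 CPM. The libraries of day 7 and of day 14 lay below every control, and only replicate 4 of day 3 reached the control range. At day 7 Nrp2 fell by 0.57 ± 0.15 on the log2 scale (SE, edgeR adjusted p = 0.0293), lower in 4 of 4 libraries. The day 14 value was of nearly the same size, -0.55 ± 0.15, with an adjusted p of 0.0763 (DESeq2 0.0112), and the day 3 value was -0.30 ± 0.15 (adjusted p = 0.140). DESeq2 passed 1778 of all genes at day 14, against 51 in edgeR. Leaving out any 1 control or any 1 of day 7 replicates 1, 2 and 3 gave adjusted p of 0.0536 to 0.104 at day 7, scaling by library totals 0.0595, and no filter on low counts 0.0721. The Nrp2 gene (chromosome 1, 62703285 to 62818695, plus strand) overlaps the antisense gene Gm29083 and the gene Gm37121, and the strand setting of the counting is not given in the sources used here, so reads of these genes could not be told apart.

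Of the 10 members, then, 2 passed the test at day 7, both lower. In edgeR 10.5% of the 18657 tested genes passed at day 7 and 6.9% passed as lower. DESeq2 passed 4 (Vegfa, Flt1, Nrp2 and Vegfc), where it passed 3768 of all genes, and limma voom 2, where it passed 2009. At day 3, 0 of 10 passed in edgeR, where 14.7% of genes did, and 1 had an unadjusted p under 0.05. DESeq2 passed 1 (Flt1), where it passed 4799 of all genes, and voom 0, where it passed 2455. A fit of day 3 and control libraries alone passed 2 (Flt1 and Pgf), where it passed 7171 of all genes. The fit without those 3 libraries passed 3 (Kdr, Flt1 and Pgf), where it passed 4168. At day 14, 0 of 10 passed in edgeR, where 0.273% of genes did, and 3 had an unadjusted p under 0.05. DESeq2 passed 1 (Nrp2), where it passed 1778 of all genes, and voom 0, where it passed 101. The share of all genes at an unadjusted p under 0.05 is not given for these days. The libraries of 2 members at day 3, 5 at day 7 and 3 at day 14 did not overlap those of the controls, where 40.3%, 29.7% and 19.5% of all tested genes did not overlap. The median log2 fold change of the members was 0.11 at day 3, -0.17 at day 7 and -0.21 at day 14, beside 0.01, 0.03 and 0.04 over all tested genes.

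**Figure D3:**
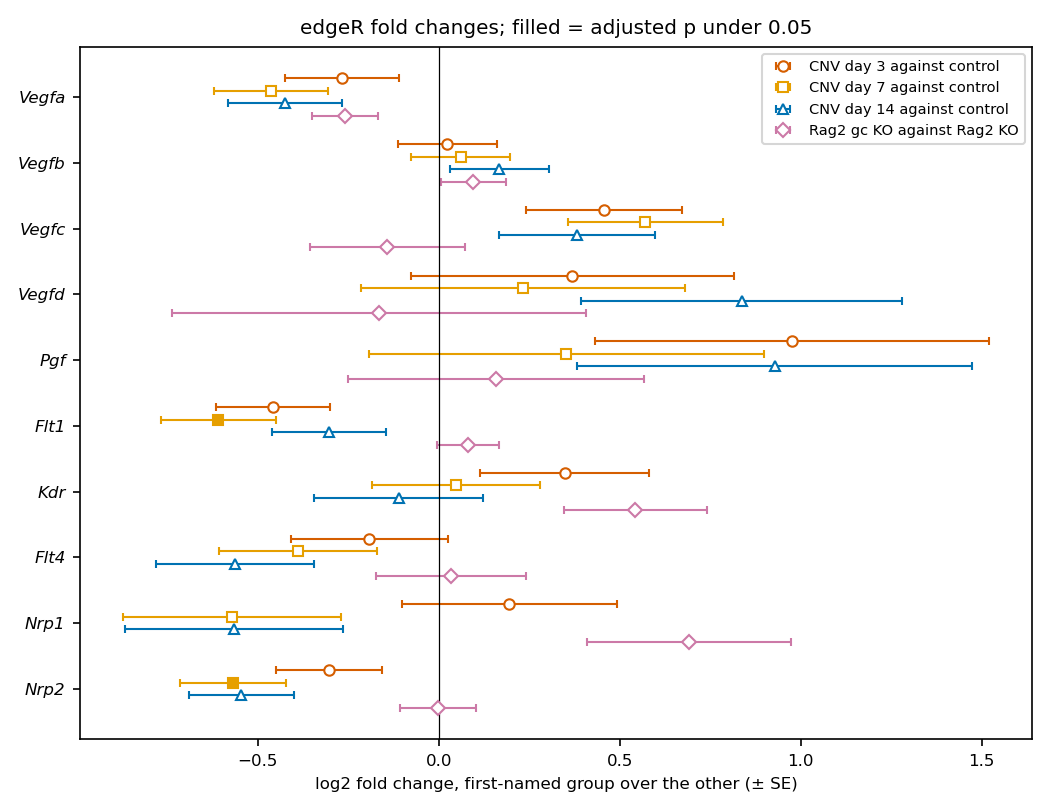
edgeR log2 fold changes of each member with SE bars, for day 3, day 7 and day 14 over control and for Rag2 gc KO over Rag2 KO; filled markers have an adjusted p under 0.05. Only Flt1 (-0.61) and Nrp2 (-0.57) at day 7 are filled.

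Kdr, the main signalling receptor, was not lower with Flt1, and its spread was wide at day 3. Kdr CPM was 121, 161, 76.3 and 222 at day 3, then 99.9, 113, 108 and 150.3 at day 7, then 104, 109, 93.6 and 116 at day 14. Controls had 111, 107, 114 and 125 CPM. At day 3, replicates 2 and 4 lay above every control and replicate 3 below every control, so the groups overlapped. The log2 fold change was 0.35 ± 0.23 (SE) at day 3, 0.05 ± 0.23 at day 7 and -0.11 ± 0.23 at day 14, with edgeR adjusted p of at least 0.278. Without those 3 libraries, day 3 replicate 3 among them, the day 3 value was 0.58 with an adjusted p of 0.0374. That fit passed 4168 of all genes at day 3. Adjusted for lens and cornea scores, the day 3 value was 0.71 with an adjusted p of 0.0710. Without day 3 replicate 4, the highest library, it was 0.069 with an adjusted p of 0.826. Endothelial markers summed to 186 to 302 CPM at day 3, 89.5 to 260 at day 7 and 86.2 to 324 at day 14, against 105 to 195 CPM in controls, and their part in the Kdr values was not tested.

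Within each library, Flt1 was lower relative to Kdr at days 3 and 7. The log2 ratio of Flt1 to Kdr counts was -1.02, -1.31, -0.69 and -1.66 at day 3, then -0.81, -1.38, -1.001 and -1.24 at day 7, then -0.29, -0.67, -0.74 and -0.94 at day 14. Controls had -0.57, -0.52, -0.31 and -0.43. All libraries of days 3 and 7 lay below every control, and day 14 overlapped the controls through replicate 1. The same ratio per kb averaged 0.306 ± 0.0862 at day 3, 0.314 ± 0.0558 at day 7 and 0.429 ± 0.0837 at day 14, against 0.487 ± 0.0392 in controls (SD, n = 4 each). The ratio is a description and has no test here. Set against the mean log2 CPM of the 18 endothelial markers, Flt1 stood 2.51 ± 0.17 log2 units higher at day 3, 3.08 ± 0.66 at day 7 and 3.50 ± 0.67 at day 14, against 3.92 ± 0.29 in controls. Kdr stood 3.68 ± 0.42 units higher at day 3, 4.18 ± 0.77 at day 7 and 4.16 ± 0.94 at day 14, against 4.38 ± 0.31 in controls. The endothelial mean itself was 3.40 ± 0.29 at day 3, against 2.45 ± 0.40 in controls (SD), so these differences also carry its rise. On the same measure at day 3, Nrp2 stood at 0.97, against 2.23 in controls. Flt4 stood at -0.84, against 0.32, and Nrp1 at -0.29, against 0.51, so lower values were not particular to Flt1.

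**Figure D4:**
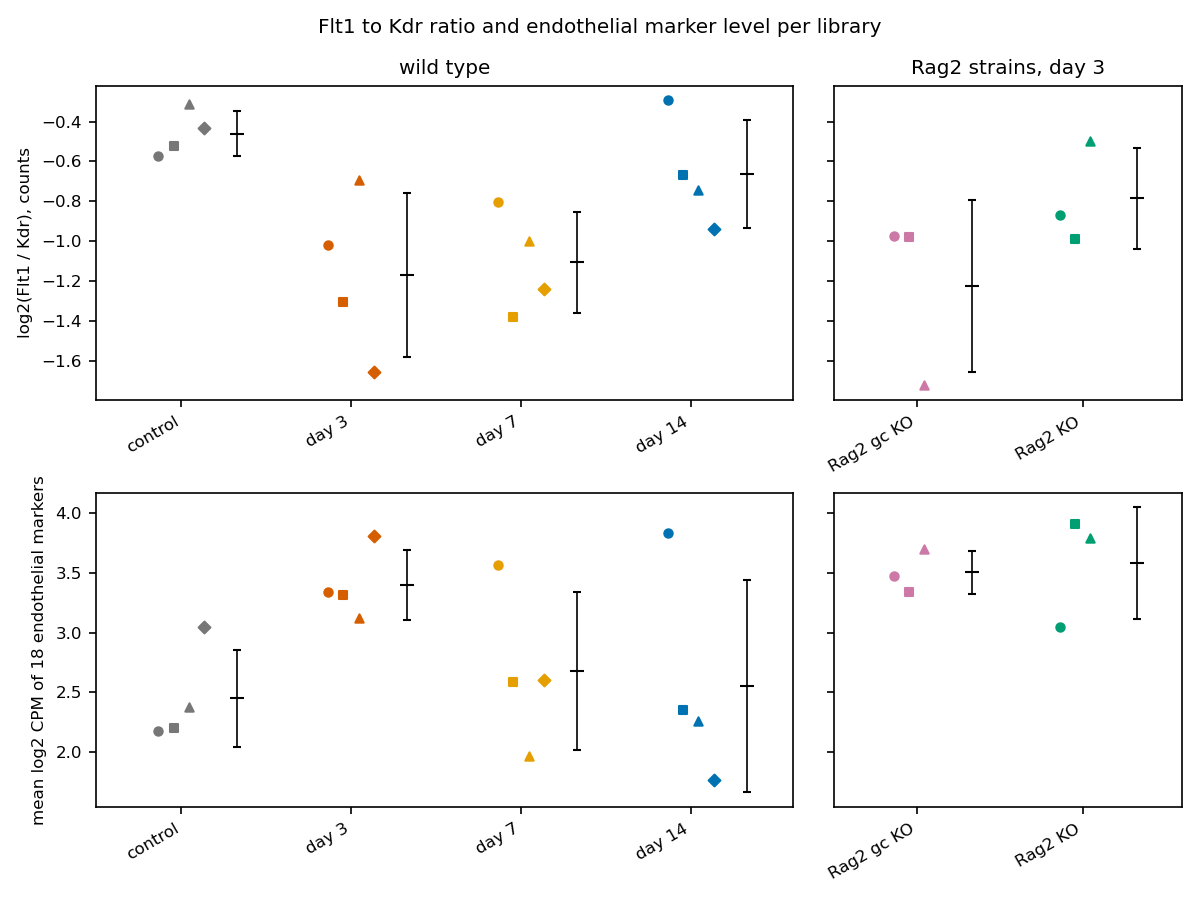
Log2 ratio of Flt1 to Kdr counts (top) and mean log2 CPM of 18 endothelial markers (bottom) in each library, with mean ± SD (n = 4 per wild-type group, 3 per Rag2 group) and marker shapes for replicate numbers. The ratio lies below every control at days 3 and 7, where it averages -1.17 and -1.11 against -0.46 in controls.

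Nrp1 and Flt4, counted at 52 to 219 reads per wild-type library, did not pass the test. Nrp1, the co-receptor of VEGFR2, had 6.43, 6.88, 9.54 and 13.02 CPM at day 3, then 7.59, 4.77, 4.44 and 4.30 at day 7, then 8.66, 4.69, 3.14 and 4.74 at day 14. Controls had 7.36, 7.35, 8.96 and 7.67 CPM. In each of days 7 and 14, replicate 1 lay in the control range and the other 3 libraries below it. The log2 fold change of Nrp1 was 0.19 ± 0.30 (SE) at day 3, -0.57 ± 0.30 at day 7 (edgeR adjusted p = 0.1995) and -0.56 ± 0.30 at day 14 (adjusted p = 0.253). Without day 14 replicate 1 the day 14 value was -0.89 (adjusted p = 0.105), and without day 3 replicate 4 the day 3 value was -0.040. Flt4 had 3.92 to 7.79 CPM at day 3, 4.56 to 5.80 at day 7 and 3.81 to 5.57 at day 14, against 5.81 to 8.90 in controls. At days 7 and 14 its libraries lay below every control, by a small margin, and the log2 fold changes were -0.19, -0.39 and -0.56 at days 3, 7 and 14, with adjusted p of 0.530, 0.227 and 0.145. Lymphatic endothelial markers (5 matched) summed to 345 to 412 CPM at day 3, 240.5 to 363 at day 7 and 278 to 611 at day 14, against 379.6 to 426 in controls. In controls these 5 summed higher than the 18 endothelial markers (105 to 195 CPM). Of the 5, 1 rose and 1 fell at day 3, where 6.97% and 7.77% of all tested genes did. Which cells they came from was not tested, so the sum is no measure of lymphatic endothelium.

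Between days after the laser no member passed the test. At day 7 against day 3, 0 of 10 passed in edgeR, where 0% of genes did; 1 had an unadjusted p under 0.05 (Nrp1, -0.77 ± 0.30), DESeq2 and voom passed 0, and 0 members did not overlap, where 5.75% of genes did not. At day 14 against day 3, 0 of 10 passed in edgeR, where 0.00536% of genes did; 1 had an unadjusted p under 0.05 (Nrp1, -0.76 ± 0.30), DESeq2 and voom passed 0, and 0 members did not overlap, where 2.85% of genes did not. Without day 14 replicate 1, Nrp1 fell by 1.09 (edgeR adjusted p = 0.0284) and Pgf fell by 1.20 (adjusted p = 0.0414) at day 14 against day 3. That fit passed 1290 of all genes, against 1 with all libraries. The comparisons between days and those with control share libraries.

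Among genes known to respond to VEGF in endothelium, 5 of 20 rose at day 3, where 6.97% of all tested genes did, and 0 fell. Vcam1, a leukocyte adhesion molecule, rose to 24.9 CPM at day 3, against 10.95 in controls (log2 fold change 1.18, edgeR adjusted p = 0.0116). Plaur, the urokinase receptor, rose to 3.08 CPM at day 3, against 0.575 in controls (2.40, adjusted p = 0.0129), and Mcam, an adhesion molecule of vessels, to 18.1 CPM at day 3, against 6.51 in controls (1.48, adjusted p = 0.0230). The median of that list was 0.98 at day 3, 0.19 at day 7 and 0.24 at day 14, and 0 of 20 passed in edgeR at day 7 or day 14, where 3 and 2 had an unadjusted p under 0.05. Endothelial markers had positive fold changes in 18 of 18 at day 3, of which 1 passed, where 6.97% of all tested genes rose. It was Pecam1 (0.92, edgeR adjusted p = 0.0317), a junction protein of endothelium. Monocyte and macrophage markers summed to 272 to 709.5 CPM at day 3, 209.9 to 564 at day 7 and 199 to 707 at day 14, against 119 to 167 in controls, and 8 of 11 tested rose at day 3 (6.97% of all tested genes); their part in the VEGF-responsive list was not tested.

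Of 29 tested transducers of VEGF receptor signals, 2 rose and 2 fell at day 3, a share close to the 14.7% of all tested genes that passed either way. Sphk1, a lipid kinase, had 11.4 CPM at day 3, against 6.54 in controls (log2 fold change 0.80, edgeR adjusted p = 0.0377), and Cdc42, a small GTPase, 255 at day 3, against 176 in controls (0.53, adjusted p = 0.0392). Pik3ca, a catalytic subunit of PI 3-kinase, had 86.0 CPM at day 3, against 123 in controls (-0.52, adjusted p = 0.0370). At day 7 the heat shock protein gene Hspb1 rose by 2.20 (edgeR adjusted p = 0.0493), while 0 of 29 passed in edgeR at day 14 (6 at an unadjusted p under 0.05). Adjusted for lens and cornea scores, the Cdc42 value was 0.22 and the day 7 Hspb1 value 0.92. Of the 8 tested genes for VEGF-C and VEGF-D processing, the plasminogen activators Plat (1.45, adjusted p = 0.00527) and Plau (2.11, adjusted p = 0.0314) rose at day 3 (Plau 0.58 when adjusted for lens and cornea scores), and 0 passed in edgeR at day 7 or day 14 (3 and 2 at an unadjusted p under 0.05). Of 13 class 3 semaphorins and plexins, Sema3c fell by 1.06 at day 3 (adjusted p = 0.0171) and by 0.81 at day 7 (adjusted p = 0.0417). Sema3e, a ligand of the plexin encoded by Plxnd1, fell by 0.82 at day 7 (adjusted p = 0.0227), and Plxnd1 rose by 0.88 at day 3 (adjusted p = 0.0274). For these and the processing genes, the shares over all tested genes were 6.97% higher and 7.77% lower at day 3. At day 7, 10.5% of all tested genes passed and 6.9% fell, and at day 14 0.273% passed.

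Of 20 genes of the hypoxia factor, its regulators and its targets, 0 rose at any of the 3 days. In all, 3 fell at day 3, 4 at day 7 and 1 at day 14, where 7.77%, 6.9% and 0.241% of all tested genes fell. The list mixes regulators such as Hif1an with targets, so its counts and median do not stand for targets alone. Hk2, a hexokinase, fell to 299.6 CPM at day 3, against 618 in controls (log2 fold change -1.04, edgeR adjusted p = 0.0230), and to 276 at day 7 (-1.16, adjusted p = 0.0183). Hif1an, an inhibitor of the hypoxia factor, fell by 0.42 at day 3 (adjusted p = 0.0167), by 0.45 at day 7 (adjusted p = 0.0145) and by 0.49 at day 14 (adjusted p = 0.0383), and Kdm3a, a histone demethylase, by 0.44 at day 3 (adjusted p = 0.0203) and by 0.43 at day 7 (adjusted p = 0.0240). The median of the list was -0.15, -0.23 and -0.11 at days 3, 7 and 14, beside 0.01, 0.03 and 0.04 over all tested genes. Adjusted for lens and cornea scores, the Hk2 value was -0.29 at day 3 and -0.67 at day 7. Vcam1, Plaur and Plat at day 3 passed the test in 16 of 17 alternative settings, and the other named genes of the VEGF-related, hypoxia and endothelial lists in 6 to 15. Rod markers, also lower at day 3 in 14 of 14 by sign, passed in 0 of 14 in edgeR (5 at an unadjusted p under 0.05), where 7.77% of all tested genes fell. All 14 did not overlap controls at day 3, as was so for 40.3% of all tested genes. The part of rod markers in the hypoxia list values was not tested.

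The study set the Rag2 strains side by side to ask what NK cells do after the laser. Between them at day 3, no member passed the test. Vegfa CPM was 161, 134 and 172 in Rag2 gc KO libraries, against 192, 185 and 181 in Rag2 KO libraries. Kdr CPM was 181, 211 and 296 in Rag2 gc KO libraries, against 156, 178 and 139 in Rag2 KO libraries. For both genes the groups did not overlap, which was so for 2 of 10 members and for 22.1% of 18923 tested genes, a similar share. The log2 fold change, Rag2 gc KO over Rag2 KO, was -0.26 ± 0.091 (SE) for Vegfa (edgeR adjusted p = 0.253) and 0.54 ± 0.20 for Kdr (adjusted p = 0.302; DESeq2 0.0298). Without Rag2 gc KO replicate 3, which had the highest Kdr, the Kdr value was 0.32 and its groups still did not overlap. Nrp1 CPM was 17.2, 14.3 and 21.0 in Rag2 gc KO libraries, against 7.29, 9.74 and 15.5 in Rag2 KO libraries, which overlapped (0.69 ± 0.28, adjusted p = 0.325). In all, 0 of 10 passed in edgeR, where 0.465% of genes did. At an unadjusted p under 0.05 there were 3 (Vegfa, Kdr and Nrp1), and the share of all genes at that level is not given. DESeq2 passed 1 (Kdr), where it passed 695 of all genes, and voom 0, where it passed 81.

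The other 7 members differed by 0.16 or less on the log2 scale between the strains, with adjusted p of at least 0.654. Flt1 CPM was 92.0, 107 and 89.7 in Rag2 gc KO libraries, against 85.3, 89.6 and 98.0 in Rag2 KO libraries (log2 fold change 0.081 ± 0.086, SE), and Nrp2 averaged 31.4 ± 1.76 CPM in Rag2 gc KO libraries, against 31.5 ± 4.10 in Rag2 KO libraries (SD, n = 3 each). The log2 ratio of Flt1 to Kdr was -0.97, -0.98 and -1.72 in Rag2 gc KO libraries, against -0.87, -0.99 and -0.50 in Rag2 KO libraries, with overlap. Endothelial markers summed to 238 to 300.4 CPM in Rag2 gc KO libraries, against 193 to 337 in Rag2 KO libraries, with 6 of 18 positive and 0 of 18 passed in edgeR (0 at an unadjusted p under 0.05). Of the VEGF-responsive genes, Vcam1 rose to 30.8 ± 1.34 CPM in Rag2 gc KO, against 20.1 ± 0.225 in Rag2 KO libraries (SD, n = 3 each; log2 fold change 0.62, edgeR adjusted p = 0.0202). It was 1 of 20, where 0.211% of all tested genes rose, and it passed in 8 of 12 alternative settings. The call was lost without any 1 of the 3 Rag2 KO libraries (adjusted p of 0.0557 to 0.0971, with log2 fold changes of 0.60 to 0.62) and with the replicate number as a block (adjusted p = 0.0693). Monocyte and macrophage markers summed to 231 to 594 CPM in Rag2 gc KO libraries, against 194 to 261 in Rag2 KO libraries, and skeletal muscle markers to 135 to 699 CPM in Rag2 gc KO libraries, against 95.7 to 174 in Rag2 KO libraries. The part of these markers in the member values was not tested.

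**Figure D5:**
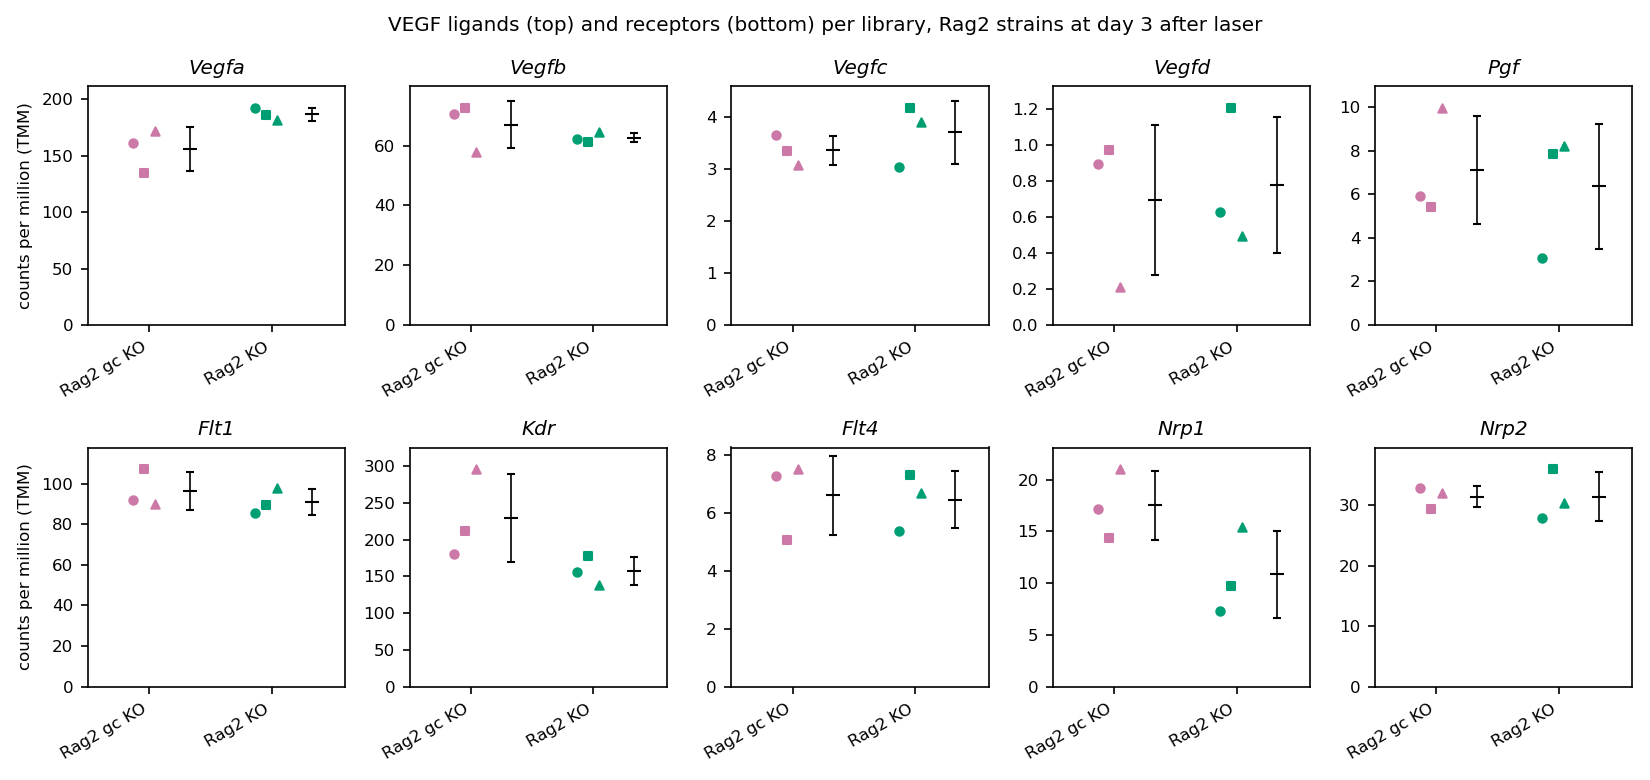
CPM (TMM-scaled) of each member in each Rag2 library at day 3 after the laser, Rag2 gc KO left and Rag2 KO right, with mean ± SD (n = 3 each) and marker shapes for replicate numbers. Vegfa is lower and Kdr higher in all 3 Rag2 gc KO libraries, without overlap, as for 22.1% of all tested genes, and neither passed the test.

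Levels are set side by side across the tables only as values, since strain, table and depth cannot be told apart. Kdr at day 3 averaged 229 CPM in Rag2 gc KO and 157 in Rag2 KO libraries, beside 145 in wild-type libraries, and Vegfd averaged 0.693 CPM in Rag2 gc KO and 0.776 in Rag2 KO libraries, beside 2.35 in wild-type libraries. Cornea and conjunctiva markers summed to at most 7.49 CPM in Rag2 gc KO and 9.37 in Rag2 KO libraries, beside at least 4995 at wild-type day 3, and Krt16 was at 0 in both Rag2 groups.

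The pattern of each member over the 16 wild-type libraries was compared with 16656 other genes by the root mean square difference of gene-centred log2 CPM. The gene nearest to Vegfa was Akap1, at 0.0658, where Vegfa itself varied by 0.276. For Flt1 it was Ppm1h at 0.119 (Flt1 itself 0.303), for Nrp2 Sfxn2 at 0.144 (0.287), and for Kdr Sox8 at 0.189 (0.338), followed by Igf2bp2 and the glial glutamate transporter gene Slc1a3 at 0.201. Pgf lay nearest to Dse at 0.262 (0.758) and Nrp1 to St3gal6 at 0.266 (0.505). The other 4 members, Vegfb, Vegfc, Vegfd and Flt4, had Reep5, Tmem81, Fmo2 and Tmem132a as their nearest genes. No other member was among the 3 nearest genes of any member.

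The wild-type table also carries the authors' own comparisons with control. In the authors' deposited table, Flt1 (-0.43) and Pgf (1.01) had an adjusted p under 0.05 at day 3, Vegfa (-0.45), Flt1 (-0.59) and Nrp2 (-0.55) at day 7, and Nrp2 (-0.53) at day 14. The authors' deposited table has 26.4%, 18.8% and 3.65% of its genes under that threshold at days 3, 7 and 14.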

How the data were processed

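RNA of 16 wild-type and 6 Rag2 libraries was sequenced. The authors deposited raw counts per gene, made with featureCounts 1.5.0-p3 on mm10, per the submitters' processing notes; aligner, annotation release and strandedness were not given in the sources used here. The deposited FPKM values equal counts over gene length times 1 constant per library and served only as that check. Per the file headers, the wild-type table also gives the authors' mean signal per group, log2 fold change and p-value; the tool is not given, and the signal was not used. Gene length in bases and coordinates are as deposited.

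Counts were tested in R 4.3.3 with edgeR 4.0.16 (TMM, filterByExpr at a minimum count of 10 and minimum total of 15, robust quasi-likelihood, group means) over all 16 wild-type or all 6 Rag2 libraries, leaving 18657 and 18923 genes. P-values were Benjamini-Hochberg adjusted over all tested genes, called under 0.05; fitted fold changes are on the log2 scale with SE. CPM use TMM-scaled totals. The scripts were tested on simulated data. The number of libraries limits precision.

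Alternatives were RLE factors, library totals, no filter, DESeq2 1.42.0, limma 3.58.1 voom, a replicate block, compared groups only, lens and cornea scores as covariates, leaving out 3 libraries (day 3 replicate 3, day 7 replicate 2, day 14 replicate 1), and each library in turn. Members, lists, tests and the libraries left out were chosen with earlier results of these data known. Named genes are all 10 members, called genes among the 3 smallest p of each list, the knocked-out genes and the 3 genes nearest to each member's pattern, among genes with a mean CPM of at least 1; genes of cell type lists are given as sums. A gene that this rule would name is not reported here.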

Additional observations from a re-analysis of the deposited data

Results flagged for a closer look

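In 40 groups of 4 libraries, 1 per member and wild-type group, the gap between the extreme library and its neighbour was compared with the group's range, and 2 passed Dixon's 95% critical value; chance alone gives about 1 in 20. Nrp1 was 7.59 CPM in day 7 replicate 1, where the other 3 libraries had 4.30 to 4.77 CPM (gap over range 0.857). Pgf was 24.7 CPM in day 14 replicate 1, where the other 3 had 3.05 to 5.80 CPM (gap over range 0.873). That library also had the highest Vegfd, at 6.21 CPM, and 14.6% of its counts in lens genes; the part of the lens genes in these values was not tested.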

How the results depend on the processing

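Each of the 10 members' fold changes was recomputed in 17 alternative settings for the wild-type comparisons and 12 for the Rag2 comparison. The count of members called at day 7, 2, was 1 under library totals, 0 with no filter on low counts and 4 in DESeq2, and 0 to 2 when 1 library was left out, with 0 in all such runs but the one without day 7 replicate 4. At day 3 it was 1 in DESeq2, 2 in the fit of compared groups only and 3 without the 3 libraries left out together, at day 14 1 in DESeq2, and between the Rag2 strains 1 in DESeq2, each where the count reported was 0. At day 14 against day 3 it was 0 to 2 when 1 library was left out. Over all genes, DESeq2 called 3768 at day 7, 4799 at day 3, 1778 at day 14 and 695 between the Rag2 strains. At day 3 the fit of compared groups only called 7171 genes and the fit without the 3 libraries 4168. Adjusting for lens and cornea scores turned the sign at day 3 of Vegfa (0.088), Vegfb (-0.060), Vegfd (-0.67), Pgf (-0.19), Nrp1 (-0.27) and the neutrophil gene S100a9 (-0.14), at day 7 of Vegfb (-0.069), Vegfd (-0.47) and Pgf (-0.29), and at day 14 of Pgf (-0.10) and Kdr (0.18). It also turned Vegfb (-0.0090), Vegfd (0.21) and Flt1 (0.0020) at day 7 against day 3 and Pgf (0.092) at day 14 against day 3. Without those 3 libraries, Pgf at day 14 was -0.21, Vegfb -0.0037 and Vegfd 0.19 at day 7 against day 3, and Flt1 -0.076 at day 14 against day 3. Library totals gave Vegfb -0.0033 at day 3, and voom gave Nrp2 0.0045 between the Rag2 strains. Leaving out 1 library at a time turned the sign of some values. At day 3 Vegfb ranged from -0.0069 to 0.10 and Nrp1 from -0.040 to 0.33, at day 7 Vegfb from -0.038 to 0.14 and Kdr from -0.092 to 0.12, and at day 14 Pgf from -0.21 to 1.22. At day 7 against day 3 Vegfb ranged from -0.064 to 0.12 and Vegfd from -0.27 to 0.20, and at day 14 against day 3 Vegfc from -0.18 to 0.023, Vegfd from -0.033 to 0.81 and Pgf from -1.20 to 0.24. Between the Rag2 strains Vegfd ranged from -0.49 to 0.29, Pgf from -0.17 to 0.37, Flt1 from -0.0032 to 0.13, Flt4 from -0.081 to 0.19 and Nrp2 from -0.079 to 0.10. Day 3 and control libraries did not overlap in lens share, the lens and cornea scores were adjusted together, and the cause of these changes was not tested. Over all tested genes, calls ranged from 292 to 7171 at day 3 (2749 reported), 128 to 4485 at day 7 (1962), 1 to 1778 at day 14 (51), 0 to 63 at day 7 against day 3 (0), 0 to 1290 at day 14 against day 3 (1) and 25 to 695 between the Rag2 strains (88). Members with few counts, Vegfc and Vegfd above all, carry wide errors.

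With the replicate number as a block, the count of members called was 2 at day 7 and 0 in the other comparisons, as without it, with adjusted p of 0.0392 for Flt1 and 0.0347 for Nrp2, and Nrp2 between the Rag2 strains was 0.0040. Over all genes the block gave 2897, 1691 and 2 calls at days 3, 7 and 14 and 46 between the Rag2 strains. Deviations of same-numbered wild-type libraries correlated with a median r of 0.10 (-0.51 to 0.48, 24 pairs). For libraries with different numbers the median r was -0.0063 (-0.56 to 0.60, 72 pairs). The labels do not pair the libraries, and these values cannot decide whether same-numbered libraries share a batch.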
